A study of Caenorhabditis elegans with 6 samples.

Results

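The ceh genes of the nematode Caenorhabditis elegans were compared between heat-shocked larvae of the strains hs::lin-29 and hs::control, called the lin-29 strain and the control strain from here on. They were taken as every gene in the count tables whose name is ceh followed by a number, with ceh-16 left out. This gave 65 genes of 41573 names. Of these, 63 had at least 1 count in some library, 2 had none in any library and count as not measured, and 47 had enough counts to be tested. The RNA came from whole larvae in the L3 stage, in 3 libraries per strain. Populations synchronized at the L1 stage grew at 20 °C, were heated to 37 °C for 30 min at 28 h after feeding, and were sampled 1 h later. Both strains had this heat shock. By the stated design it induces lin-29, a zinc finger transcription factor gene of the heterochronic pathway, in the lin-29 strain. The labels used here do not say which promoter drives the transgene, what the control strain carries, or whether the replicates, called trials, were separate cultures. The p-values therefore rest on variation among these 6 libraries, part or all of which could be technical.

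The name ceh stands for C. elegans homeobox. A homeobox encodes a homeodomain, a compact fold of helices that binds DNA, and homeodomain proteins act as transcription factors that fix where along the body a cell lies and what kind of cell it becomes. In this worm most homeobox genes are active in nerve cells, where combinations of them define neuron types, and others act in the pharynx, the gonad, the mesoderm, the excretory cell and the skin. The family falls into classes by the homeodomain and by added domains, such as the POU, LIM, CUT and sine oculis classes, and the classes named here come from textbook knowledge. Genes that could not be placed with certainty are called unclassed.

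Each library held between 14553652 and 17303509 counts in genes, so that 1 CPM, the usual count scaled to library size (here with TMM factors), stood for 13.9 to 18.3 counts. lin-29 was at 49.8, 43.8 and 45.8 CPM in the control libraries, by replicate, and reached 131, 517 and 339 CPM with the transgene induced. The induced gene was therefore higher in every library of the lin-29 strain, and least so in replicate 1. On the second principal component of all tested genes, control replicate 1 lay far out, at 45.7 against -21.4 and -17.7 for the other control libraries.

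Of the ceh family 1 gene passed the test between the strains. ceh-99, a homeobox gene left unclassed here, rose 4.15-fold in the lin-29 strain, and none of the other 46 tested members passed edgeR's quasi-likelihood test at an adjusted p of 0.05 in either direction. That is 1 of 47 members higher and 0 lower, or 2.13%, beside 6.60% of all 13045 tested genes (2.46% higher and 4.14% lower). At an unadjusted p of 0.05 there were 3 members, ceh-99, ceh-20 and ceh-32, or 6.38%, beside 18.2% of all tested genes. DESeq2 also called 1 member, beside 8.02% of the genes it tested. In whole-body RNA fewer cells of a type and less RNA per cell cannot be told apart.

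For most members the data limited how large an unseen difference could be. These limits, like the p-values, rest on variation among the 6 libraries, part or all of which could be technical. The approximate 95% interval of the fold change lay within 2-fold in either direction for 38 of the 46 members that did not pass, and within 1.5-fold for 24 of them. Among all tested genes the shares of intervals within 2-fold and 1.5-fold were 74.0% and 49.2%, and among the 47 members they were 80.9% and 51.1%. The other 8 intervals reached 2-fold or more, and belonged to ceh-1, ceh-5, ceh-9, ceh-23, ceh-33, ceh-36, ceh-40 and ceh-83. The median log2 fold change was 0.05 over the 47 members and 0.01 over all tested genes, and the median size of the change without its sign was 0.14 and 0.17.

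**Figure D1:**
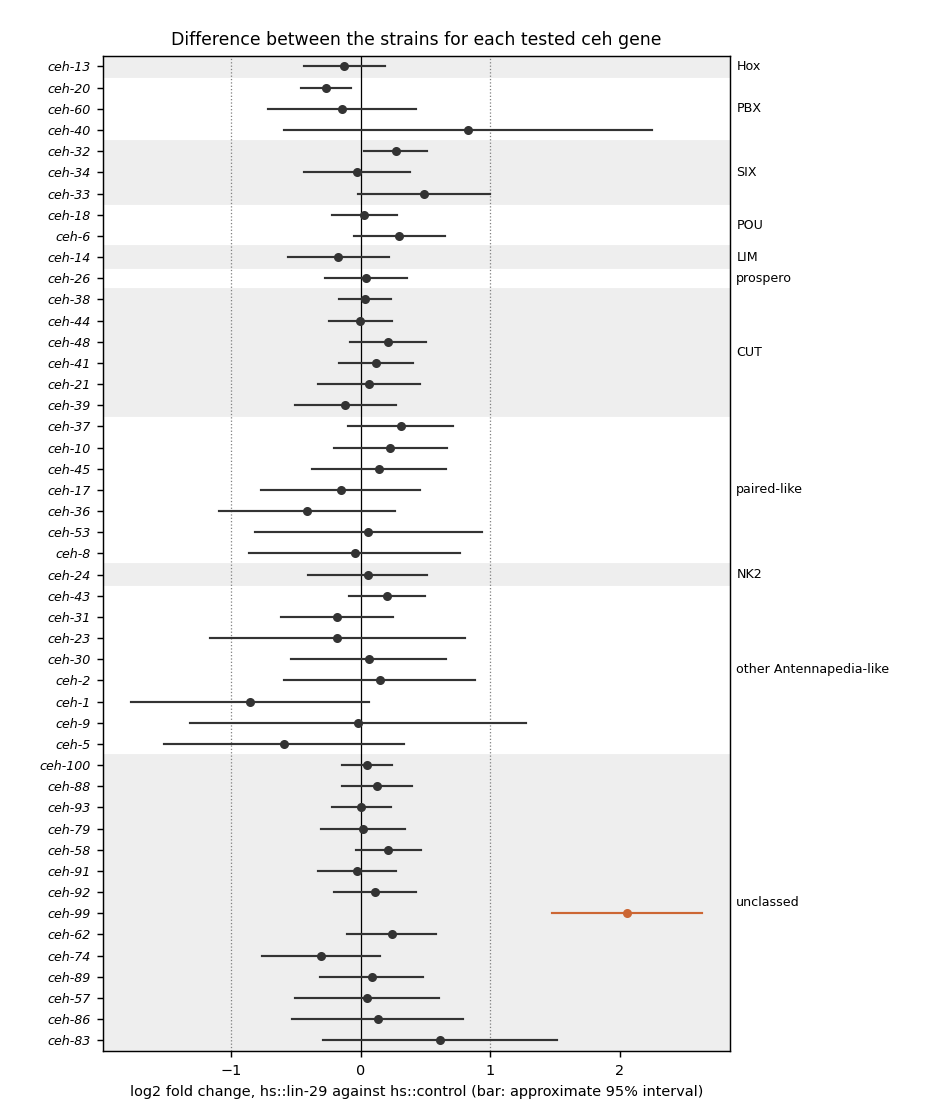
Log2 fold change of each of the 47 tested ceh genes, lin-29 strain against control strain (x axis), grouped by homeobox class. Bars are approximate 95% intervals and dotted lines mark 2-fold. ceh-99, in orange, is the only gene past the test, and 38 of the other 46 intervals lie between the dotted lines.

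**Figure D2:**
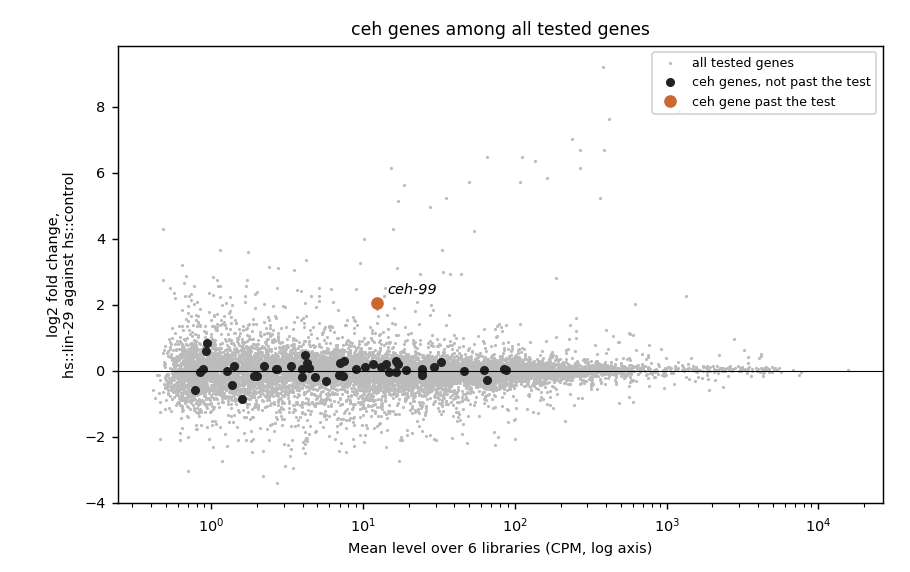
Log2 fold change (y axis) against the mean level over 6 libraries (x axis, CPM, log axis) for all 13045 tested genes in grey and the 47 ceh genes as larger points. ceh-99 stands at a log2 fold change of 2.05, and the other ceh genes lie between -0.85 and 0.83.

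The libraries of the strains did not overlap for 10 of the 47 members (21.3%), beside 23.2% of all tested genes. In 9 of the 47 members the lin-29 strain was the higher strain, beside 11.3% of all tested genes. In 1 of the 47 it was the lower strain, beside 11.9%. The 9 were ceh-99, ceh-32, ceh-33, ceh-58, ceh-6, ceh-48, ceh-62, ceh-43 and ceh-41, and the gene with lower values was ceh-20. With libraries scaled by their totals alone, without TMM factors, 5 members did not overlap.

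ceh-99 had 78, 78 and 81 counts in the control strain and 461, 238 and 240 counts in lin-29 replicates 1 to 3. In CPM this was 5.56, 4.28 and 4.54 against 27.7, 17.1 and 14.6. Every lin-29 library lay above every control library. The control libraries were close together, and lin-29 replicate 1, the library of that strain with the least lin-29, held the most ceh-99. The means were 4.79 ± 0.676 and 19.8 ± 6.94 CPM (SD, n = 3 libraries each). The log2 fold change was 2.05 (SE 0.25, adjusted p 0.002186 by edgeR), with a 95% interval of 2.78-fold to 6.19-fold. Without lin-29 replicate 1 it was 1.72. ceh-99 passed in all 16 alternative settings, with adjusted p from 1.935e-12 to 0.01794.

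The genes beside ceh-99 were looked up after its value was seen. In the WBcel235 annotation srh-70 is the next protein-coding gene on one side, on the other strand and divergent from ceh-99, and srx-118 is the next on the other side, on the same strand. Both belong to families of predicted chemoreceptor genes. srh-70 had 52, 49 and 58 counts in the control strain and 156, 80 and 145 in the lin-29 strain, and rose from 3.21 ± 0.509 to 7.98 ± 1.94 CPM (SD, n = 3). Its log2 fold change was 1.32 (SE 0.23, adjusted p 0.01026 by edgeR). Leaving out control replicate 2 or 3 ended the call, with adjusted p of 0.05143 and 0.05565, the latter being the largest over the alternatives and 1.872e-05 the smallest. srx-118 had 14, 8 and 6 counts in the control strain and 21, 22 and 26 in the lin-29 strain, which do not overlap. Its log2 fold change of 1.35 (SE 0.44) did not pass, at an adjusted p of 0.1244 by edgeR. Of the 20 protein-coding genes nearest in order, 10 on each side, 8 were tested, srh-70 alone passed, and 4 of the 8 had a log2 fold change above 0. No exon of another annotated gene overlaps ceh-99.

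**Figure D3:**
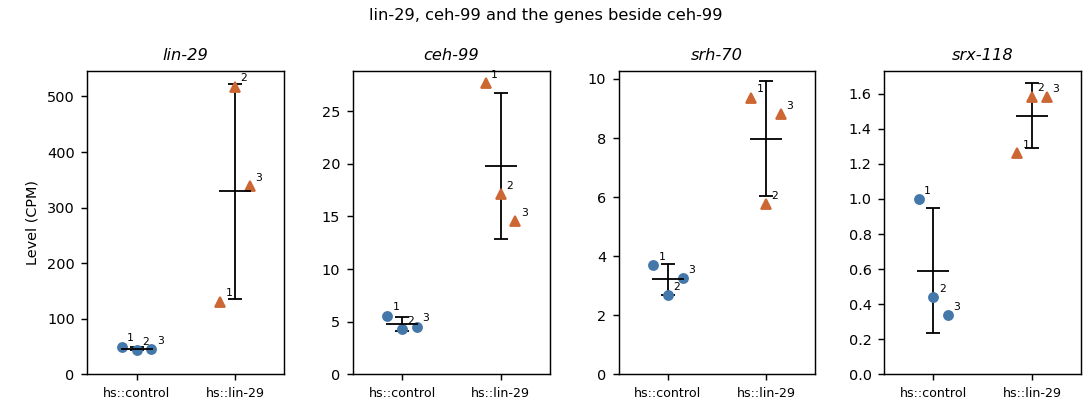
Level in CPM (y axis) of lin-29, ceh-99 and the genes on either side of ceh-99 in each library (points, numbered by replicate), with the mean and SD of 3 libraries per strain. The lin-29 libraries lie above all control libraries for each of the 4 genes, with ceh-99 highest in replicate 1 and lin-29 highest in replicate 2.

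The family ranged widely in level. The most abundant transcripts per length (CPM per kb of annotated exon, averaged over the 6 libraries) were those of ceh-20 at 51.5, ceh-18 at 34.6, ceh-13 at 26.5, ceh-38 at 21.8, ceh-100 at 20.0 and ceh-32 at 17.6 CPM per kb. ceh-20 stood clear of the next gene, at 44.96 to 59.6 CPM per kb against 31.1 to 39.3 for ceh-18. Over all libraries the ranges of ceh-18 and ceh-13 (22.1 to 31.5) met, as did those of ceh-13 and ceh-38 (20.7 to 23.4), of ceh-38 and ceh-100 (18.6 to 20.8) and of ceh-100 and ceh-32 (14.7 to 20.1). Within single libraries ceh-20 lay above ceh-18, and ceh-18 above ceh-13 by at least 5.50 CPM per kb, in 6 of 6. ceh-13 also lay above ceh-38 in 6 of 6 libraries, but in the closest by 0.043 CPM per kb. ceh-38 exceeded ceh-100, and ceh-100 exceeded ceh-32, in 5 of 6 libraries, so that the order of these last pairs did not hold throughout. At the low end of the tested members ceh-83 stood at 0.503, ceh-86 at 0.566 and ceh-8 at 0.637 CPM per kb. Lengths were found under the ceh name for 62 of the 65 members and not for ceh-26, ceh-44 and ceh-85. Those without a length were left out of this order, so where they would stand in it is not known. Of all 47 tested members 4 had a mean of 50 CPM or more, 16 had 10 to 50, 22 had 1 to 10 and 5 had less than 1 CPM.

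**Figure D4:**
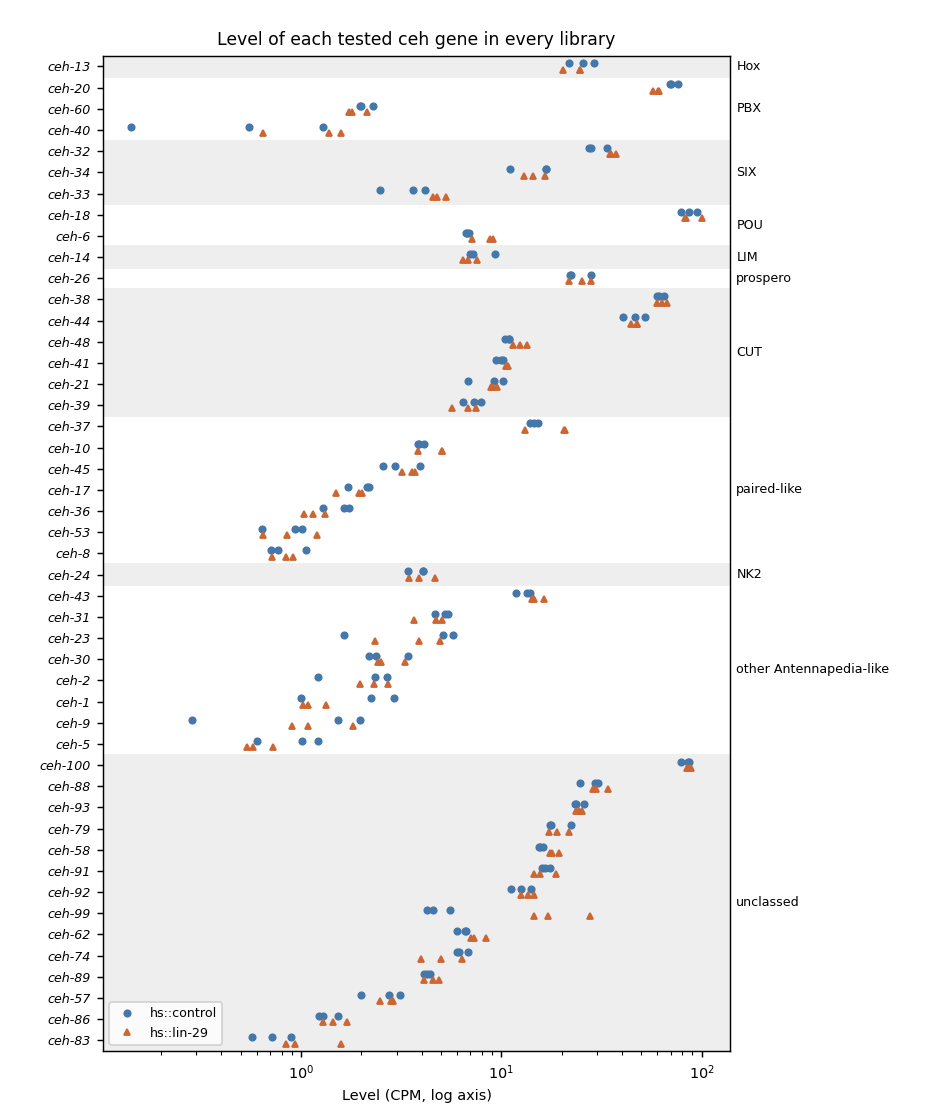
Level of each of the 47 tested ceh genes in every library (x axis, CPM, log axis), with control libraries as circles and lin-29 libraries as triangles, grouped by homeobox class. Levels run from under 1 CPM to about 100 CPM, and only for ceh-99 are the strains widely parted.

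The Hox gene ceh-13 and the PBX genes encode proteins that act together in body patterning. ceh-13 is the worm's labial-type Hox gene and is needed in the embryo. Its counts were 306, 464 and 518 in the control strain and 414, 345 and 335 in the lin-29 strain, or 25.4 ± 3.61 and 23.3 ± 2.595 CPM, and the strains overlapped. ceh-20 encodes the Extradenticle-type PBX partner of Hox proteins. It had 985, 1264 and 1361 counts in the control strain and 1019, 841 and 947 in the lin-29 strain, and after scaling 70.2, 69.3 and 76.2 against 61.2, 60.5 and 57.5 CPM. All lin-29 libraries lay under all control libraries. The difference was small, with a log2 fold change of -0.27 (SE 0.09), and missed the test at an adjusted p of 0.1172 by edgeR. The 95% interval of the lin-29 strain level was 0.726 to 0.950 of the control level, so that a change of 1.5-fold lay outside it.

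ceh-40, the PBX gene that overlaps in function with ceh-20 in the embryo, had 2, 10 and 23 counts in the control strain and 23, 9 and 26 in the lin-29 strain. The strains overlapped widely, and its interval, from 0.664 to 4.76 of the control level, was the widest of the tested members on the log scale. ceh-60, a PBX gene that acts in the intestine on yolk gene expression, had 28, 36 and 41 counts against 29, 25 and 35, or 2.09 ± 0.180 and 1.89 ± 0.207 CPM. None of the 3 PBX genes passed.

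The 3 genes of the sine oculis class act in the head and pharynx. ceh-32, the head-patterning member, had 384, 514 and 599 counts in the control strain and 584, 489 and 616 in the lin-29 strain. In CPM this was 27.4, 28.2 and 33.5 against 35.05, 35.2 and 37.4, so that the strains did not overlap, with control replicate 3 close to the others. The log2 fold change was 0.27 (SE 0.11) and the adjusted p 0.213 by edgeR. ceh-33 had 35, 76 and 65 counts in the control strain and 76, 66 and 87 in the lin-29 strain, or 3.43 ± 0.856 CPM and 4.865 ± 0.3745 CPM. Its log2 fold change was 0.49 (SE 0.22, adjusted p 0.2944 by edgeR), and it was lowest in control replicate 1. ceh-34, its neighbour on the same strand and a gene that defines pharyngeal neurons, did not follow it: its counts of 156, 304 and 298 and of 275, 199 and 213 gave overlapping levels of 14.8 ± 3.215 and 14.6 ± 1.80 CPM. Whether ceh-33 and ceh-34 differ in their response was not tested.

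None of the 4 POU, LIM and prospero genes passed the test. ceh-18, a POU gene of the gonadal sheath cells, which signal to the oocytes, had the highest mean CPM of the family. Its levels were 79.1, 86.7 and 95.4 CPM in the control strain and 100.0, 82.5 and 84.0 CPM in the lin-29 strain, which overlap. Its interval ran from 0.856 to 1.22 of the control level. ceh-6, a POU gene of the excretory cell, had 97, 121 and 120 counts in the control strain and 146, 126 and 117 in the lin-29 strain. It stood at 6.76 ± 0.140 and 8.31 ± 1.06 CPM without overlap, a log2 fold change of 0.30 (SE 0.16) that did not pass (adjusted p 0.3801 by edgeR). ceh-14, a LIM gene of the thermosensory neurons, had 101, 127 and 166 counts against 114, 89 and 125. ceh-26, the prospero gene also known as pros-1 and active in glia, had 313, 404 and 503 counts against 466, 350 and 359. Both overlapped between the strains.

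The CUT genes differed little between the strains. Members of this class act together across the nervous system as shared regulators of neuronal genes. All 6 tested members had an interval within 1.5-fold in either direction, and their summed level over all 7 members was 139, 146 and 151 CPM in the control strain and 148, 154 and 145 CPM in the lin-29 strain. ceh-38, a ONECUT gene, stood at 61.0, 64.9 and 59.7 CPM against 59.6, 67.2 and 63.3 CPM. ceh-44, the CUX gene, stood at 40.5, 46.7 and 52.2 CPM against 47.5, 47.4 and 44.6 CPM, and the strain means of 46.5 CPM were equal to 3 digits. The largest difference in the class was that of ceh-48, a ONECUT gene, with 146, 200 and 195 counts against 225, 172 and 189, a log2 fold change of 0.21 (SE 0.13, adjusted p 0.4841 by edgeR). The neighbouring genes ceh-41 and ceh-21 had means of 9.84 and 10.7 CPM and of 8.75 and 9.15 CPM in the control and lin-29 strains. ceh-39, which also serves as an X chromosome signal in sex determination, had 7.22 and 6.66 CPM. ceh-49 had between 5 and 19 counts and was not tested. An exon of ceh-38 overlaps tra-2 in the annotation, so its reads may be mixed with those of that gene or left out as ambiguous.

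The paired-like genes, several of which specify single neuron types, did not pass in any case. ceh-37, an Otx-type gene of the olfactory neuron AWB, was the most abundant, at 14.6, 13.99 and 15.3 CPM in the control strain and 20.6, 20.7 and 13.2 CPM in the lin-29 strain. Replicates 1 and 2 of the lin-29 strain were above the controls and replicate 3 was below them. The log2 fold change was 0.31 (SE 0.18, adjusted p 0.442 by edgeR), and without lin-29 replicate 3 it was 0.50 with an adjusted p of 0.09039, the smallest over the alternatives, of which the largest was 0.7443. ceh-36, the neighbouring Otx-type gene of the taste and olfactory neurons ASE and AWC, had 18, 30 and 31 counts against 22, 16 and 17. ceh-10, which specifies the interneuron AIY, had 54, 75 and 69 counts against 84, 70 and 63. Of the others, ceh-45, of the goosecoid type, stood at 3.15 and 3.49 CPM, ceh-17, a Phox2-type gene of the neuron ALA, at 2.01 and 1.82 CPM, ceh-53 at 0.860 and 0.899 CPM, and ceh-8, an Rx-type gene, at 0.848 and 0.824 CPM, in the control and lin-29 strains.

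Of the NK2 genes only ceh-24 could be tested. It acts in head and vulval muscle and in some motor neurons, and had 48, 74 and 73 counts in the control strain and 78, 54 and 57 in the lin-29 strain, which overlap. ceh-28, a gene of the pharyngeal neuron M4, had 2, 11 and 3 counts against 8, 4 and 10. ceh-22, a pharyngeal muscle regulator, and ceh-27 are listed at 0 in every library. The pharyngeal muscle markers myo-1, myo-2, tnc-2 and tni-4 were all present, at a summed 2321 to 2435 CPM in the control strain and 2175 to 2425 CPM in the lin-29 strain. Genes used by many cells, such as unc-119 and unc-15, are listed at 0 as well, so that a 0 here is given only as listed.

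The other Antennapedia-like genes ranged from steady to widely scattered. ceh-43, the Distal-less gene, active in the anterior skin and in dopaminergic neurons, was the most abundant of them, with 167, 254 and 239 counts against 237, 228 and 241. It stood at 13.1 ± 1.05 and 15.1 ± 1.16 CPM without overlap, a log2 fold change of 0.20 (SE 0.13, adjusted p 0.4956 by edgeR). ceh-31 and its neighbour ceh-30, BarH-type genes of which ceh-30 protects the male CEM neurons from death, had 76, 96 and 83 counts against 79, 51 and 83, and 48, 43 and 39 against 55, 35 and 40. ceh-1 had 14, 41 and 52 counts in the control strain and 17, 15 and 22 in the lin-29 strain. Its log2 fold change of -0.85 (SE 0.40, adjusted p 0.3178 by edgeR) was the lowest in the family, and control replicate 1 lay under all lin-29 libraries. Without that library the log2 fold change was -1.16 with an adjusted p of 0.05132, the smallest over the alternatives, of which the largest was 0.7195.

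ceh-23, a gene of the interneuron AIY, showed the same low value in control replicate 1, with 23, 93 and 102 counts against 39, 54 and 81, and so did ceh-9, with 4, 28 and 35 against 15, 15 and 30. ceh-2, the Emx-type gene of pharyngeal neurons, had 17, 49 and 42 counts against 33, 38 and 38. ceh-5, of the Vax type, stood at 0.941 and 0.615 CPM. All 4 overlapped between the strains and none passed. Among those too low to test, ceh-12, an HB9-type motor neuron gene, had 1 to 10 counts, ceh-51, of the embryonic mesoderm, 4 to 10, and ceh-19, of the pharyngeal neuron MC, 0 or 1.

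**Figure D5:**
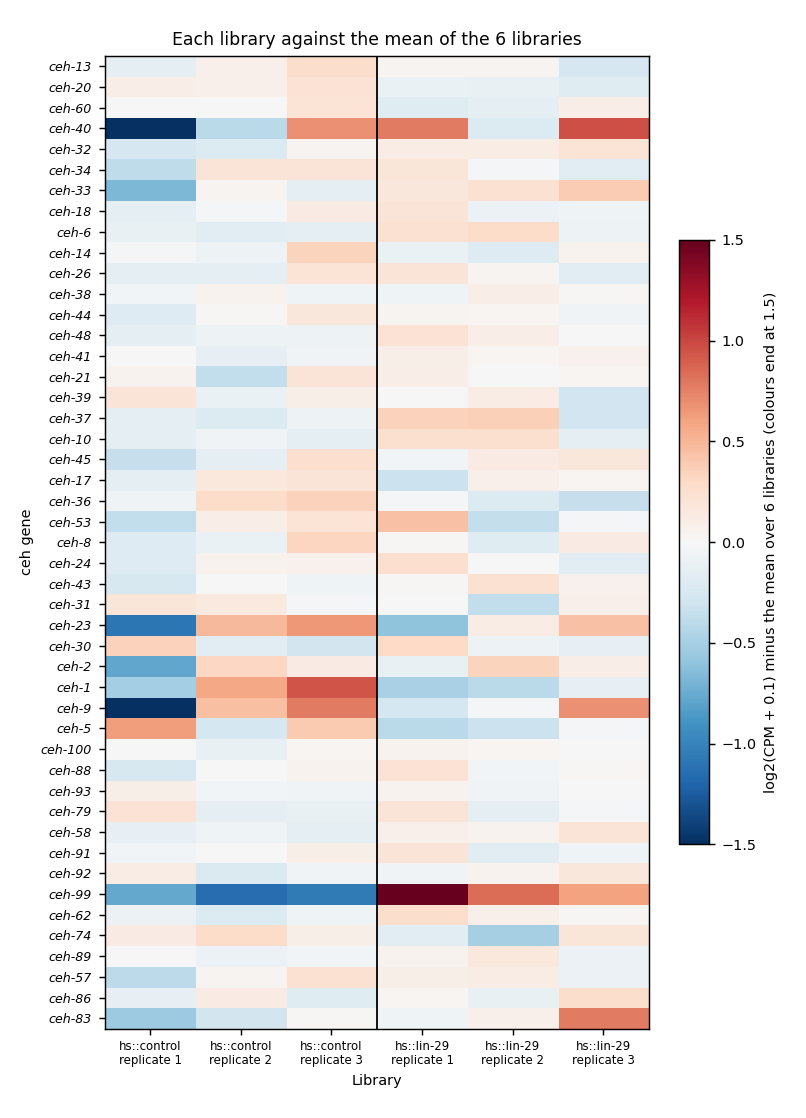
Each of the 47 tested ceh genes (rows) in each library (columns), as log2(CPM + 0.1) minus the mean of the 6 libraries. ceh-99 parts the strains, while ceh-40, ceh-23, ceh-2 and ceh-9 are lowest in control replicate 1.

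One control library was often the lowest and another often the highest. In 16 of the 47 members control replicate 3 had the highest level of all 6 libraries, beside 11.8% of all tested genes. control replicate 1 had the lowest level of all 6 libraries for 19 of the 47 members (40.4%), beside 21.7% of all tested genes. For ceh-1, ceh-9, ceh-23 and ceh-40 it lay under 0.5 times the lower of the other control libraries, which makes 8.51% of the members beside 5.61% of all tested genes. The summed level of 15 neuron markers was also lowest in that library, at 1112 CPM against 1270 and 1328 in the other controls and 1271 to 1405 in the lin-29 strain. No neuron marker passed, and 5 of the 15 are listed at 0 (unc-119, unc-10, unc-31, egl-3 and unc-11). Their part in the low values was not tested. Without control replicate 1, ceh-99 was again the only member past the test, now of 49 tested. The median coefficient of variation over the members was 12.1% among the control libraries and 11.8% among the lin-29 libraries.

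Among the 24 unclassed genes 14 were tested and ceh-99 alone passed. By annotated exon ceh-100 was the longest of the 62 members for which a length was found (4236 bases). It stood at 85.1, 78.6 and 86.2 CPM in the control strain and 88.2, 86.9 and 84.1 CPM in the lin-29 strain. ceh-88 stood at 24.8, 29.5 and 30.4 CPM against 34.2, 28.6 and 29.7 CPM. ceh-93 was at 24.3 ± 1.41 and 24.4 ± 0.867 CPM, ceh-79 at 19.2 ± 2.70 and 19.4 ± 2.29, ceh-91 at 16.6 ± 0.711 and 16.3 ± 2.20 and ceh-92 at 12.55 ± 1.45 and 13.55 ± 1.08 CPM, all overlapping. ceh-58 had 219, 296 and 277 counts against 299, 244 and 320, or 15.8 ± 0.394 and 18.3 ± 0.989 CPM without overlap (log2 fold change 0.21 with SE 0.11; edgeR adjusted p 0.3753). Its neighbour ceh-57 stood at 2.62 and 2.73 CPM. ceh-62 stood at 6.55, 6.03 and 6.66 CPM against 8.34, 7.34 and 7.04 CPM, a log2 fold change of 0.24 (SE 0.15) with an adjusted p of 0.4931 by edgeR. ceh-83 had 8, 13 and 16 counts against 14, 13 and 26, a log2 fold change of 0.61 (SE 0.40) with an adjusted p of 0.5141 by edgeR. ceh-74 stood at 6.32 and 5.11 CPM, ceh-89 at 4.26 and 4.53 CPM and ceh-86 at 1.35 and 1.48 CPM.

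In all, 16 members had some counts but too few for the main test, with totals over the 6 libraries from 2 for ceh-19 to 63 for ceh-54. Of the unclassed ones, ceh-85, annotated as a pseudogene in the RefSeq table, had 1, 13 and 6 counts in the control strain and 0, 0 and 2 in the lin-29 strain, and ceh-82 had 0, 6 and 10 against 0, 0 and 3. Both were again lowest in control replicate 1 among the controls. No library held more than 4 counts of ceh-7, ceh-75, ceh-84 or ceh-90, and ceh-63, ceh-76, ceh-81 and ceh-87 did not exceed 11. In the WBcel235 annotation 11 of the tested members found there by name share an exon stretch with another gene. Among them are ceh-20 (with F31E3.8), ceh-32 (W05E10.16), ceh-34 (C10G8.2), ceh-37 (C37E2.7) and ceh-40 (xtr-2). The tested members ceh-26 and ceh-44 were not found by name and are not counted, but pros-1, taken as ceh-26, overlaps K12H4.10. The strand setting of the counting is not known here, so reads of such pairs cannot be told apart. With no filter on low counts all 63 members above 0 were tested, and ceh-99 remained the only one past the threshold.

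Homeobox genes with other names were taken from a list of 37 written from textbook knowledge. Of these, 36 were named in the tables, 7 were listed at 0 in every library, 3 were too low and 26 were tested. In the test 1 rose and 1 fell, beside 6.60% of all tested genes in either direction. hmbx-1, the worm's HMBOX-type gene, had 1109, 1273 and 1376 counts in the control strain and 827, 655 and 778 in the lin-29 strain. It fell 1.57-fold, from 75.3 ± 4.84 to 48.01 ± 1.41 CPM, with no overlap (log2 fold change -0.65 with SE 0.09; edgeR adjusted p 0.003159). pha-2, a homeobox gene of pharynx development, had 51, 74 and 66 counts in the control strain and 161, 89 and 92 in the lin-29 strain. It rose 1.90-fold (log2 fold change 0.93 with SE 0.23; edgeR adjusted p 0.04759), with the highest value in lin-29 replicate 1, as for ceh-99. The pha-2 call ended in 9 of 16 alternatives: without control replicate 1 (adjusted p 0.08519), 2 (0.1266) or 3 (0.1697), without lin-29 replicate 1 (0.1175) or 2 (0.07951), with upper-quartile factors (0.05088), library totals only (0.08745), limma-voom (0.06936) and the replicate block (0.09984). The smallest over the alternatives was 0.004345 and the largest 0.1697. The log2 fold changes of the other 24 lay between -0.52 and 0.45.

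Of the 46 tested markers of tissues in which ceh genes act 3 passed (6.52%), beside 6.60% of all tested genes. None passed among the neuron, pharyngeal muscle, body wall muscle or germline markers. The intestine list held 1 rise, elt-2, the epidermis list 1 rise, nhr-25, and the list of gonadal sheath and spermatheca 1 fall, ipp-5. The summed levels overlapped between the strains for all lists but the epidermis, at 3878 to 5282 CPM in the control strain and 5347 to 6263 CPM in the lin-29 strain. Of its 10 genes sqt-3, elt-1, elt-3 and nhr-23 are listed at 0. The sum does not stand for each gene of the list. While nhr-25 rose, dpy-7 had a log2 fold change of -0.36 and did not pass (edgeR adjusted p 0.387). The part of these levels in the rise of ceh-99 was not tested.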

How the data were processed

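RNA sequencing of 6 whole-larva libraries gave 1 table of raw counts per gene each, as deposited by the authors and not normalized. The submitters' processing notes name HTSeq 0.6.1p1, STAR 2.5.2b, bcl2fastq 2.18, R 3.3.2 and DESeq2 1.12.3, with build ce10, but not their roles. Which annotation release and strand setting served is not given in the sources used here. Rows naming no gene held 39.7% to 41.8% of the counts per library and were left out of all totals and fits. Names, exon lengths, overlaps and gene order came from WBcel235, another build, so no coordinates are given.

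edgeR 4.0.16 kept genes by filterByExpr (minimum count 10, minimum total 15) and scaled libraries by TMM. Its quasi-likelihood F test, two-sided and with robust estimation, had strain as its term, and p-values were adjusted over all 13045 genes by the Benjamini-Hochberg method, with a threshold of 0.05. A standard error was taken as the size of the log2 fold change over the root of F. It and the 95% intervals are approximate. The biological coefficient of variation was 14.7%. Libraries within a strain differed beyond counting noise, with a chi-square of 10.2 or more per degree of freedom. The fit was tested on simulated data, with 50 genes changed at each fold change among 13045 genes. There it called 34% of 1.5-fold changes, 68% of 2-fold, 88% of 4-fold and 100% of 8-fold changes. Of its 156 calls 11 were false. In the real data 861 genes were called, so these rates may not hold there.

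All members are named. Library values with tests are given for the 12 members of smallest p, and library values alone for the 2 most abundant of each class. The members, lists and rules were chosen with earlier results of these data known, and the genes beside ceh-99 after its value was seen. The alternatives were other scalings and filters, DESeq2 1.42.0, limma-voom (limma 3.58.1), no robust estimation, a replicate block, the 20 most abundant genes left out and each library left out in turn. Computing was done in R 4.3.3 and in Python 3.11.15 with scipy 1.17.1, pandas 2.3.3 and, for figures, matplotlib 3.10.9.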

Additional observations from a re-analysis of the deposited data

How the results depend on the processing

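The count of ceh genes past the test, 1 higher and 0 lower, was equal in all 16 alternatives, and each time the gene was ceh-99. The number of members with an interval within 2-fold, 38, ran from 34 to 39, and the number without overlap, 10, was 5 with library totals only. The log2 fold change of lin-29 was 2.82 (SE 0.41, adjusted p 0.004621 by edgeR), and lin-29 passed in 15 of 16 alternatives. The exception was no filter on low counts, with a log2 fold change of 2.83 and an adjusted p of 0.1017 by edgeR. Over the alternatives its adjusted p ran from 9.004e-06 (DESeq2) to 0.1017. Of the 47 tested members 29 kept 1 direction in all alternatives, and the 18 others had a log2 fold change of at most 0.18 in size. Over all genes the replicate block gave 206 higher and 350 lower in place of 321 and 540, and leaving out 1 library gave 135 to 327 higher and 324 to 567 lower. Among other homeobox genes the count higher was 0 in place of 1 with upper-quartile factors, library totals only, limma-voom and the replicate block, and ran from 0 to 1 with 1 library left out. Same-numbered libraries had correlations of 0.01, -0.36 and 0.24 in their deviations from the strain means. Not every library correlated best with its own number. With 3 libraries per strain these values are tied to one another, so they cannot decide whether the trials were paired. Members under about 1 CPM rest on few counts, but level alone did not set how closely a difference was bounded. The interval of ceh-8, at a mean of 0.836 CPM, ran from 0.552 to 1.70 of the control level. That of ceh-1, at a mean of 1.60 CPM, ran from 0.294 to 1.04.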
